A study of Mus musculus with 2 samples.

Results

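Major histocompatibility complex (MHC) class I molecules were described here through 10 mouse genes, taken by symbol from the array's platform annotation. The list held the classical heavy chains H2-K1 and H2-D1, the non-classical heavy chains H2-Q4, H2-Q6, H2-Q7 and H2-T23, the shared light chain B2m, and the peptide transport and loading genes Tap1, Tap2 and Tapbp. Of these 10 genes, 9 were named by a probe, out of 19318 named genes on the array, and they had 10 probes in all because Tapbp had 2. H2-Q4 was named by no probe in the annotation used here and was not analysed for expression. All 9 genes passed the filter on dim spots through at least 1 probe.

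RNA came from whole liver of 24-week-old mice of the genotypes Twist2-Cre/A20fl/fl, called CKO below, and Twist2-Cre, the control. Both carried Twist2-Cre, which recombines floxed alleles in cells of mesenchymal lineages, and the CKO genotype added floxed alleles of A20. The protein A20 is the product of Tnfaip3 and limits NF-kB activity by editing ubiquitin chains. Each genotype had 1 single-colour array, so array and genotype cannot be told apart. How many animals gave each RNA, and of which strain, is not stated in the labels. No test was therefore possible, and each difference below is a description of 2 arrays without a replicate check.

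MHC class I molecules show peptides from inside the cell to CD8 T cells and are also read by receptors of natural killer cells. The heavy chain binds beta-2 microglobulin, and both are loaded in the endoplasmic reticulum with peptides that the TAP transporter brings in from the cytosol, with tapasin holding the empty molecule at the transporter. Interferons and NF-kB are known inducers of these genes, and hepatocytes carry low levels of class I in the resting liver.

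Of 23469 gene probes, 17280 (73.6%) were above background on the CKO array and 17314 (73.8%) on the control array, a spot being above background when it exceeded the mean of the blank spots by 2 SD. The targeted gene Tnfaip3 had a deposited intensity of 38 in CKO and 41 in control liver. The part of the transcript its probe reads is not known, so this value checks neither label. Deposited intensity is the submitters' linear value per probe. The log2 ratio of CKO over control used below comes from the scanner's spot medians after background correction with an offset of 50 and quantile normalization, a scale that shrinks differences of dim genes. As a guide to size, ratios of different probes of the same gene on this scale had an SD of 0.13 over 716 genes. Intensities of different probes depend on the probe, so levels were compared between arrays and not between genes.

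The promoters show which of the members share sequence motifs. RefSeq windows (GRCm38.p6) running from 250 bases before to 50 bases after the annotated start were found for 9 of the 10 genes, Tap2 being the one without, and the 250 bases before the start are printed for 5 of them, 5′ to 3′ on the gene's strand. Capitals mark an interferon response motif and an NF-kB motif. H2-K1, H2-D1 and H2-Q7 are shown because they hold both motifs. H2-T23 and Tap1 are shown because they hold neither pattern searched and were also higher in the CKO liver.
H2-K1, chr17:34000348-34000597, - strand: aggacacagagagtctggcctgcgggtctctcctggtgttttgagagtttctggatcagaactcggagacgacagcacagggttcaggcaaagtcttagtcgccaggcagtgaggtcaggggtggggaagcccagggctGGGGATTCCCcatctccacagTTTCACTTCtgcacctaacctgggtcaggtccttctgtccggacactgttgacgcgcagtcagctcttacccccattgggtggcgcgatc
H2-D1, chr17:35262844-35263093, + strand: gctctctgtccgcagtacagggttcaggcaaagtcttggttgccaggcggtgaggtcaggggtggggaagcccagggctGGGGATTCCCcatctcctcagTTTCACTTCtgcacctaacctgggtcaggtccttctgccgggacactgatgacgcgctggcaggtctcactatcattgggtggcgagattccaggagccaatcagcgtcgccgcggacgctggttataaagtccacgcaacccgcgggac
H2-Q7, chr17:35438905-35439154, + strand: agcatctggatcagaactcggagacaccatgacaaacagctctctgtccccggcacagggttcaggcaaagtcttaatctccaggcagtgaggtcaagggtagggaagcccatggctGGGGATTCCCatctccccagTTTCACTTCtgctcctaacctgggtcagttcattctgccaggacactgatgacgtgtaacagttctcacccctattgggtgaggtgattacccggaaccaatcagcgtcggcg
H2-T23, chr17:36032702-36032951, - strand: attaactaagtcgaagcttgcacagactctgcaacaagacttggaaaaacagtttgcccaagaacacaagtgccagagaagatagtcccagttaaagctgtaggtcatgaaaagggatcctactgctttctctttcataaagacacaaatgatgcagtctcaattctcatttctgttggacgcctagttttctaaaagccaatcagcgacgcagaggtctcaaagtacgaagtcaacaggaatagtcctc
Tap1, chr17:34187306-34187555, + strand: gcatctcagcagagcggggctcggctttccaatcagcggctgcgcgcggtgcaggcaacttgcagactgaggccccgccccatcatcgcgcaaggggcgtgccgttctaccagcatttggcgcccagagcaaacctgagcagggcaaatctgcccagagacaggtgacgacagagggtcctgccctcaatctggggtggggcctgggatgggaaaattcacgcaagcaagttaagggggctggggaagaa

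The interferon response motif searched was GAANNGAAA, read on the other strand as TTTCNNTTC. It was present in 5 of the 9 members' promoters, those of H2-K1, H2-D1, H2-Q4, H2-Q6 and H2-Q7, against 8.68% of 27025 genes with such a window. The NF-kB motif searched was the first run of capitals in the H2-K1 line above, or its reverse complement. It was present in 4 of the 9, those of H2-K1, H2-D1, H2-Q6 and H2-Q7, against 0.126% of all genes. Both motifs stood in 1 window in 6 genes of the 27025 (0.0222%), and 4 of the 6 were these heavy chains. The 2 motifs lay 11 bases apart in H2-K1, H2-D1 and H2-Q6 and 10 bases apart in H2-Q7, with the NF-kB motif farther from the start. The heavy chains are copies of one another, so these matches are not independent observations. The NF-kB pattern is the exact run of letters in H2-K1, so its near copies were likely to match it. The shares over all genes, for this motif alone or with the other, are therefore a description and no test of enrichment.

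The cyclic AMP response core TGACG was present in 6 of the 9 promoters and in 6228 of the 27025 genes. The CCAAT box was present in all 9 and in 41.1% of all genes. The promoters of H2-T23, B2m, Tap1 and Tapbp held neither the interferon nor the NF-kB motif as spelled here. Each motif was searched as a single pattern, so variants of it, in these or any other windows, were not counted. All motifs were searched on both strands, and no matches within a member's window overlapped. A match is a run of letters and not a measured binding site, and a missing match says only that these letters are not in this window.

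**Figure D1:**
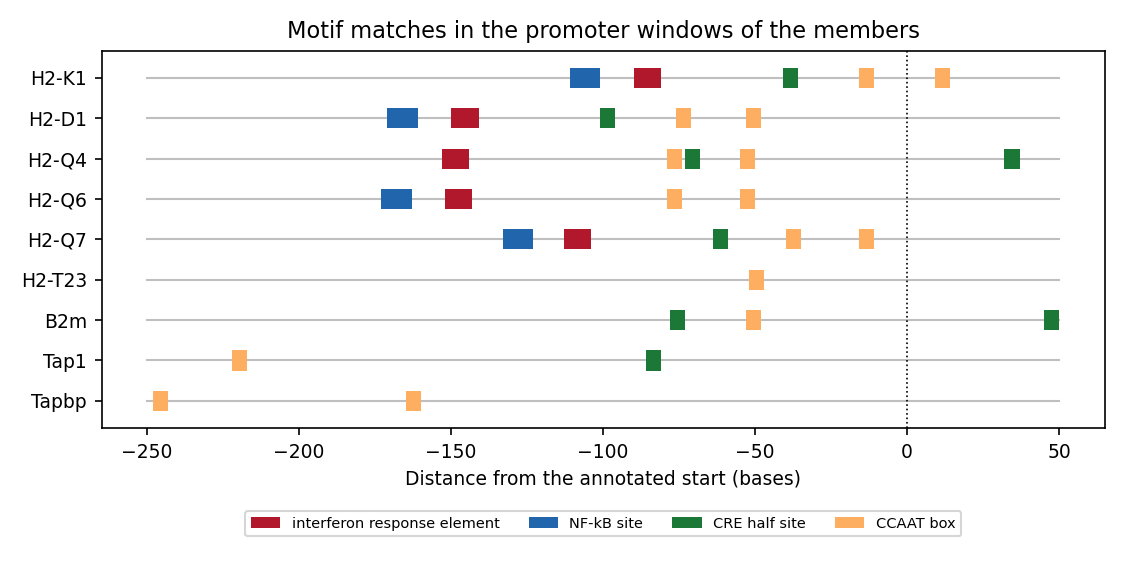
Motif matches in the promoter windows of 9 class I genes, by distance from the annotated start in bases (x axis), each coloured block being 1 match on either strand. The NF-kB and interferon response blocks sit side by side in H2-K1, H2-D1, H2-Q6 and H2-Q7. H2-T23, B2m, Tap1 and Tapbp have no match to either pattern as spelled in the search, and variants were not searched.

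All 9 measured class I genes had a log2 ratio above 0 in the CKO liver, with a median of 0.60. Over the 14143 genes above background on both arrays, 42.2% had a ratio above 0 and the median was -0.017. Whole liver holds many cell types that carry class I, and in such bulk samples more cells of a type and more RNA per cell cannot be told apart. At least 1.5-fold higher on this scale were 5 of the 9, namely H2-K1, H2-Q6, H2-Q7, H2-T23 and Tap1, against 1.70% of all genes. None of the 9 reached 2-fold on this scale, where 0.636% of all genes did, and none was 1.5-fold lower, as 0.417% of all genes were. H2-T23 and H2-Q7 were just past 1.5-fold, and with median scaling in place of quantile normalization H2-T23 was at 0.51. In the deposited values 8 of the 9 genes were higher, against 37.2% of all genes, and 4 of the 9 genes were at least 1.5-fold higher (H2-K1, H2-Q6, Tap1 and Tap2), against 7.95% of all genes. Tap1 was past 2-fold there, as were 3.54% of all genes. With plain subtraction of the blank mean all 9 were higher (60.1% of all genes), with Tap1 past 2-fold (4.30%). Against the scanner's local background column 8 were higher (40.8% of all genes) and 3 by at least 1.5-fold (5.52%), with H2-Q7 on the other side of 0 at -0.064. H2-D1 and Tapbp need separate reading, since the H2-D1 probe and the second of the Tapbp probes were close to the blank spots.

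**Figure D2:**
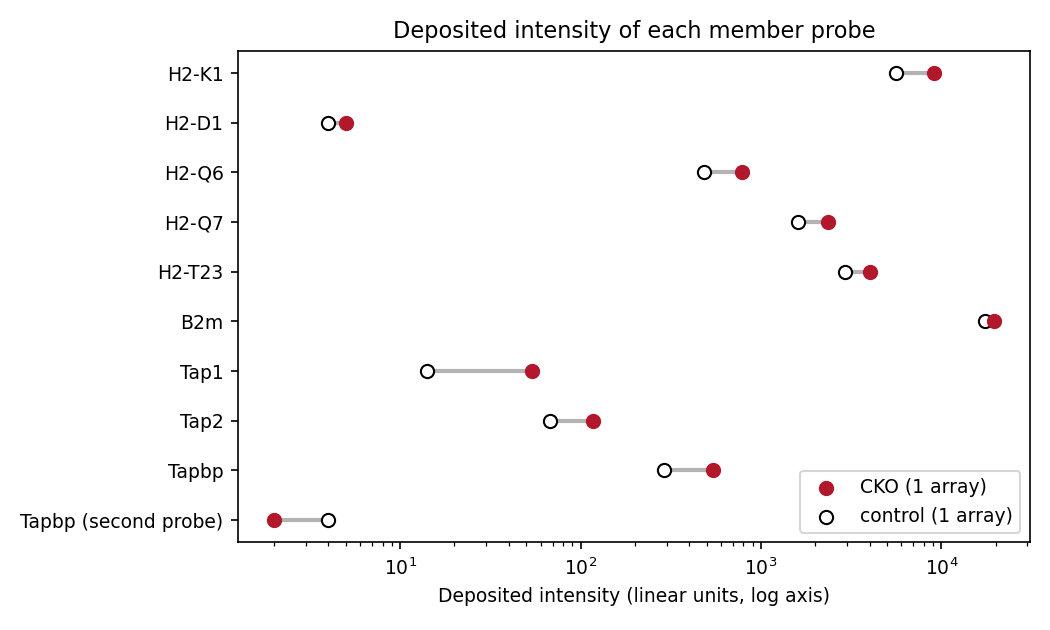
Deposited intensity (x axis, linear units on a log axis) of the 10 probes of the class I genes on the CKO array (filled) and the control array (open), 1 array each, joined by a grey line. Of the 10 probes, 9 have the CKO point on the right, from B2m at 19524 and 17429 to Tap1 at 54 and 14, and the second Tapbp probe has it on the left.

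Among the classical heavy chains, H2-K1 was clearly above background on both arrays. H2-K1 encodes the K heavy chain, a polymorphic molecule on most nucleated cells that presents peptides to CD8 T cells. Its deposited intensity was 9152 in CKO and 5582 in control liver, 1.64-fold higher in CKO. Its log2 ratio of 0.79 ranked 143 among the 14143 genes on the offset scale and was the largest gene-level ratio among the 9 there. It ranked 749 in the deposited values and 796 with plain subtraction, where Tap1 was the largest of the 9.

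H2-D1, the D heavy chain with the same role, had deposited intensities of 5 in CKO and 4 in control liver. Its spot lay 3.83 SD above the blank mean on the CKO array and 3.82 SD above it on the control array, just past the limit for background. Its log2 ratio was 0.016 with the offset of 50, 0.32 from the deposited intensities and 0.47 after plain subtraction of the blank mean. The offset of 50 is far larger than this signal and shrinks any ratio, so the H2-D1 value shows neither a difference nor its absence. The platform annotation gave this probe a gene identifier but no transcript accession.

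The non-classical heavy chains were all higher in the CKO liver. H2-Q6 and H2-Q7 belong to the Qa-2 family of less polymorphic class I molecules. H2-Q6 had deposited intensities of 783 in CKO and 482 in control liver, 1.62-fold higher in CKO, with a log2 ratio of 0.70. H2-Q7 had 2348 in CKO and 1601 in control liver, 1.47-fold higher, with a log2 ratio of 0.60. Both were higher in the CKO liver by similar amounts, and because these genes are near copies, a probe may take signal from more than one of them and the split between them is uncertain.

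H2-T23 encodes Qa-1, which presents the leader peptides of classical heavy chains to the CD94/NKG2 receptors of natural killer cells. Its deposited intensity was 4014 in CKO and 2914 in control liver, 1.38-fold higher in CKO, and its log2 ratio was 0.60. H2-Q6, H2-Q7 and H2-T23 lay between 0.60 and 0.70 on the offset scale, a range below the SD of 0.13 between probes of a gene. In the deposited values H2-Q6 was at 0.70 and H2-T23 at 0.46, a scale on which no SD between probes was computed.

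B2m encodes beta-2 microglobulin, the light chain that every class I heavy chain needs for folding and surface display. Its deposited intensity was 19524 in CKO and 17429 in control liver, 1.12-fold higher in CKO, with a log2 ratio of 0.27. B2m had a smaller ratio than each of the heavy chains H2-K1, H2-Q6, H2-Q7 and H2-T23 both with the offset and in the deposited values. Its spot medians of 23742 in CKO and 20348 in control liver were below the brightest spots of the arrays (45949 and 47899). Whether signal was still linear at that brightness was not tested. The gap of B2m to H2-T23, the lowest of those heavy chains, was 0.33 in log2 ratio. That is above the SD of 0.13 between probes of a gene but about equal to the SD of 0.34 over the ratios of all genes as bright as these.

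Tap1 and Tap2 encode both chains of the TAP peptide transporter. Tap1 had deposited intensities of 54 in CKO and 14 in control liver, 3.86-fold higher in CKO, the largest fold of the members in the deposited values. On the offset scale its log2 ratio was 0.73, and it was 1.18 with an offset of 16 and 2.03 with plain subtraction. The CKO spot lay 44.8 SD above the blank mean and the control spot 14.3 SD, so both were separated from background, but the size of the fold depended on how the background was treated. Tap2 had 117 in CKO and 68 in control liver, 1.72-fold higher in CKO, with a log2 ratio of 0.52.

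Tapbp encodes tapasin, the chaperone that bridges the heavy chain to TAP and edits the bound peptide. Its brighter probe had deposited intensities of 540 in CKO and 290 in control liver, 1.86-fold higher in CKO, and a log2 ratio of 0.84. Its second probe had 2 in CKO and 4 in control liver, and its CKO spot, 1.68 SD above the blank mean, was not above background. The mean of both probes, used as the gene's value, was 0.38. The probes thus disagreed in sign, and the gene's mean was pulled down by a probe that carried almost no signal.

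**Figure D3:**
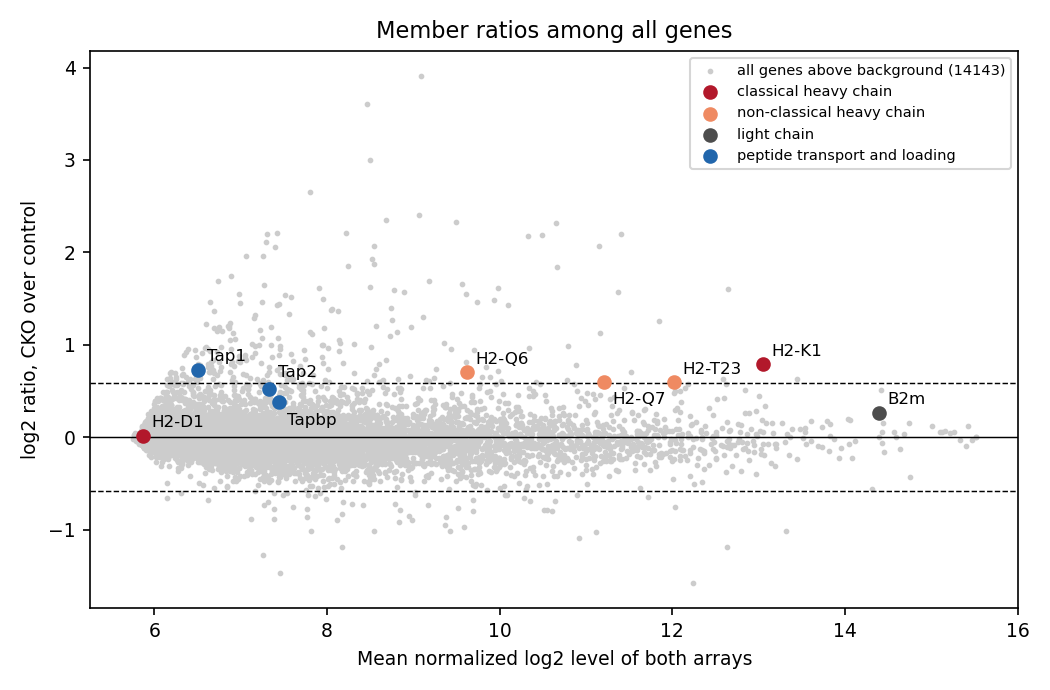
Log2 ratio of CKO over control (y axis) against mean normalized log2 level (x axis) for 14143 genes above background on both arrays (grey) and the 9 class I genes (coloured by class). The dashed lines mark 1.5-fold. H2-K1, H2-Q6, H2-Q7, H2-T23 and Tap1 lie above the upper line, B2m at 0.27 lies below it among the brightest genes, and H2-D1 at 0.016 lies among the dimmest.

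The classes were compared by their medians, which rest on 2, 3 and 3 genes and were not tested. On the offset scale the median log2 ratio was 0.40 for the classical heavy chains, 0.60 for the non-classical heavy chains and 0.52 for the peptide transport and loading genes. The classical median is the midpoint of H2-K1 and the near-background H2-D1, and with H2-D1 left out it was 0.79. With the brightest probe of each gene the transport and loading median was 0.73. With plain subtraction and the brightest probe the medians were 0.66, 0.68 and 1.01 in the same order of classes. With the offset set to 16 they were 0.42, 0.61 and 0.66. The order of the classes thus changed with the probe and the offset used, and no order is read from it. B2m was at 0.27 on the offset scale and at 0.28 with plain subtraction.

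**Figure D4:**
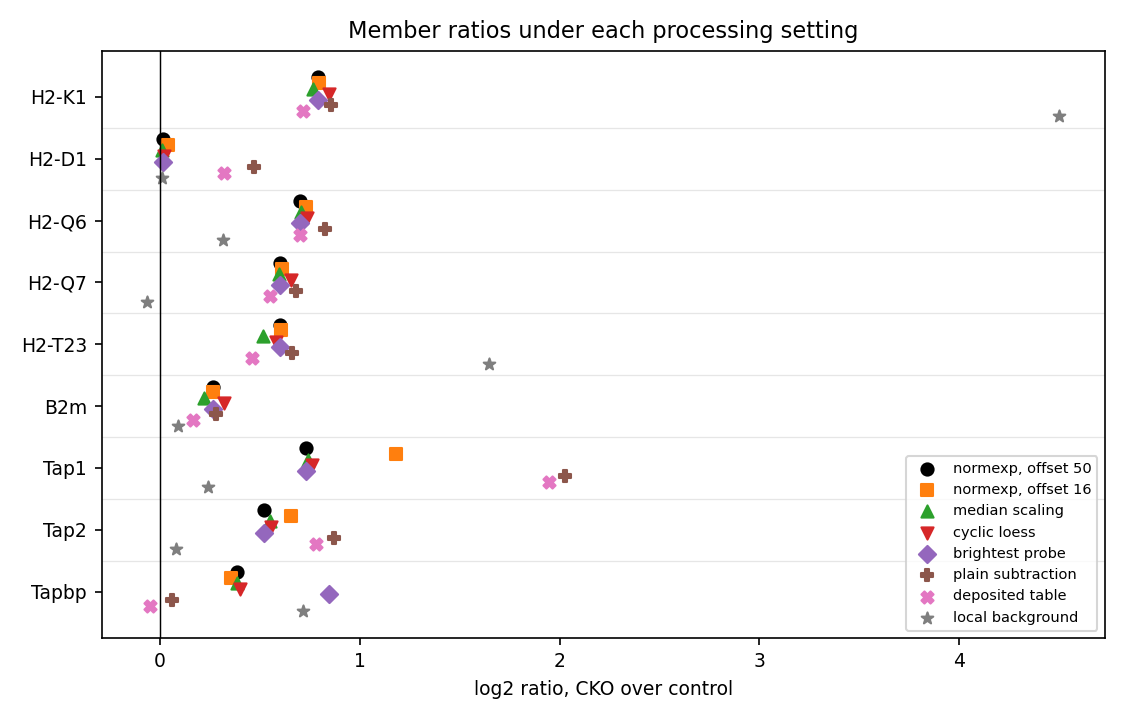
Log2 ratio of CKO over control (x axis) of the 9 class I genes under 8 processing settings (symbols). H2-Q6, H2-Q7, H2-T23 and H2-K1 keep close values except against the local background column, Tap1 runs from 0.24 to 2.03, and Tapbp from -0.052 to 0.84.

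Heavy chains outside the member list were higher in part. Of 28 further class I heavy chain genes 20 had a probe, 13 were above background on both arrays, and 10 of the 13 had a ratio above 0. Their median was 0.23 on the offset scale, 1.03 with plain subtraction and 0.92 in the deposited values. The members' median was 0.60, 0.68 and 0.55 on those scales, so which set had the larger median changed with the scale. At least 1.5-fold higher were H2-T22 (log2 ratio 0.85, deposited intensity 195 in CKO and 89 in control liver), H2-Bl (0.83, 409 and 216) and H2-Q5 (0.70, 179 and 94). H2-T22 is a ligand of a subset of gamma-delta T cells. H2-T9 had a ratio of 0.51 (7052 in CKO and 5256 in control liver) and H2-M2 one of 0.48 (30 and 9). H2-T10 had 0.44 (33 in CKO and 12 in control liver). H2-M3, which presents formylated bacterial and mitochondrial peptides, had 0.23 (15 and 6). The 7 genes that were not above background on both arrays were H2-Q1 and members of the H2-M group. Probes of these further heavy chains may also take signal from near copies, so their ratios need not be independent observations. None of the 16 further heavy chains with a promoter window held the NF-kB motif, and 3 held the interferon response motif (H2-Q10, H2-M2 and H2-M3).

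Class I-like molecules with other tasks were divided, with 5 of 10 higher, none past 1.5-fold on the offset scale and a median of 0.039. Procr, the endothelial protein C receptor, had the largest ratio (0.45, 111 in CKO and 69 in control liver), followed by Azgp1 (0.38) and Raet1e (0.32). The lipid-presenting Cd1d1 had a ratio of -0.11 (1863 in CKO and 2125 in control liver).

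Genes of the endoplasmic reticulum that serve class I folding and loading were divided. Of 12 measured genes of peptide loading, trimming and protein entry 5 were higher and 7 lower, none past 1.5-fold on the offset scale, with a median of -0.10. The tapasin-related editor Tapbpl had the largest ratio, 0.51 (142 in CKO and 88 in control liver). The glucosidase subunit Ganab (-0.28), the disulfide isomerase Pdia4 (-0.26) and the translocon subunit Sec61b (-0.25) were on the lower side. Pdia3, calreticulin (Calr) and calnexin (Canx), which act in the loading complex or just before it, had ratios of -0.12, -0.11 and -0.091. The general chaperone Hspa5 was also lower, at -0.22 (4166 in CKO and 5424 in control liver).

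Peptide supply differed by subunit. Of 14 measured genes of the proteasome, its activators and cytosolic peptidases 9 were higher, with a median of 0.16. The 3 past 1.5-fold were the immunoproteasome subunits Psmb9 (1.69, deposited intensity 815 in CKO and 227 in control liver), Psmb8 (1.43, 1444 and 525) and Psmb10 (0.96, 750 and 378). Each had a larger ratio than any member on the offset scale. For Tap1 that order turned with the scale. With plain subtraction Tap1 was at 2.03 and Psmb9, the largest of the 3, at 1.96. In the deposited values they were at 1.95 and 1.84. The activator subunit Psme1 had 0.50, the peptidase Blmh 0.21, the assembly factor Pomp 0.19 and the constitutive subunit Psmb5 -0.20.

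Among 18 measured regulators of class I transcription 11 were higher, with a median of 0.048. Irf1, an interferon-gamma-induced activator, was 2-fold higher (log2 ratio 1.02, 722 in CKO and 348 in control liver), and Irf8, a myeloid factor, had 0.88 (99 and 33). Irf9, a factor of the type I interferon response, had 0.39, Ezh2, a histone methyltransferase, had 0.38, and Nfkb2, an NF-kB subunit gene, had 0.30. Nfyc, a subunit of the CCAAT-binding factor, had -0.18. Nlrc5, the class I transactivator, was dim, with 18 in CKO and 12 in control liver, 0.15 on the offset scale and 0.77 with plain subtraction, so its difference was not resolved. Of 10 interferon ligand, receptor and feedback genes above background 6 were higher, and none was past 1.5-fold on the offset scale. Deposited intensities gave log2 ratios of 2.49 for Socs1, 1.46 for Ifng (11 in CKO and 4 in control liver), 0.69 for Jak2 and -0.65 for Socs3. The feedback inhibitor Socs1 had 0.55 (28 in CKO and 5 in control liver) and Socs3 -0.56 (816 and 1283) on the offset scale, and the receptor chain Ifngr1 had 0.40 and Ifngr2 -0.30.

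Receptors that read class I and relatives of such receptors, with Lilrb4a among the relatives, were dim and mostly higher. Of 15 with a probe 9 were above background on both arrays and 7 of these were higher. Their median was 0.28 on the offset scale, 2.12 with plain subtraction and 1.81 in the deposited values. The inhibitory receptors Lilrb4a (0.87, deposited intensity 56 in CKO and 10 in control liver) and Pirb (0.69, 41 and 8) and the CD8 beta chain Cd8b1 (0.71, 34 and 3) were past 1.5-fold. Cd8a had 0.49 (56 in CKO and 9 in control liver), Klrd1 0.28 (14 and 4) and Klra2 0.14 (8 and 3). Cd160 was lower at -0.25 (149 in CKO and 187 in control liver).

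The listed genes that neighbour the members in the MHC region of chromosome 17 without a class I role were mostly near equal between the livers. The list leaves out the class II, complement and TNF genes of that region, so it does not stand for all neighbours. Of 59 above background on both arrays, 20 were higher and 39 lower on the offset scale, with a median of -0.031, against -0.13 in the deposited values. The 2 past 1.5-fold were Ubd, an interferon- and TNF-inducible ubiquitin-like protein (1.54, 217 in CKO and 45 in control liver), and Aif1, a macrophage marker (1.10, 470 and 199). Clic1 (0.39) and Daxx (0.35) followed, and Bag6 (-0.30) and Rpp21 (-0.29) were lowest.

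**Figure D5:**
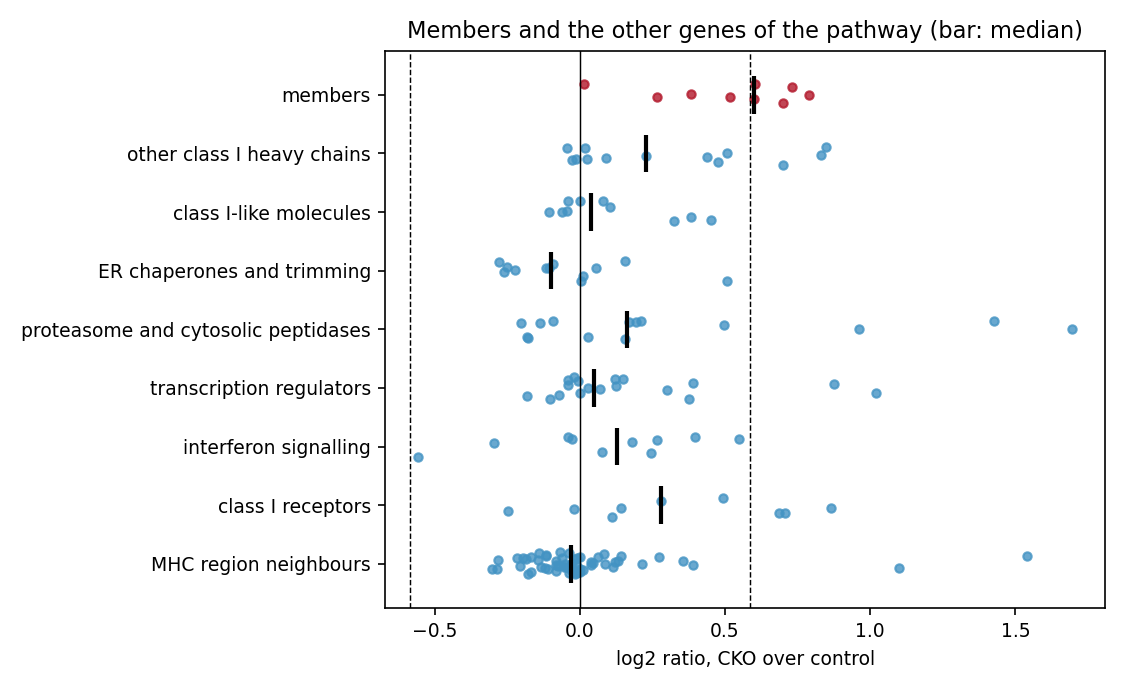
Log2 ratio of CKO over control (x axis) of genes above background on both arrays, 1 point per gene, for the 9 class I genes and 8 further gene lists (rows), with the median as a black bar and 1.5-fold as dashed lines. On this offset scale the class I genes have a median of 0.60, against 0.23 for the other heavy chains. That order turns with plain subtraction and in the deposited values. The median is -0.10 for chaperones and trimming genes of the endoplasmic reticulum and -0.031 for the listed neighbours in the MHC region.

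Markers of macrophages, T cells and natural killer cells were mostly higher in the CKO liver, as the members were. Sums below run over every gene of a list with a probe, those near background included. All 12 macrophage and Kupffer cell markers above background on both arrays had positive ratios, 10 past 1.5-fold, and the summed deposited intensity of the list was 9182 in CKO and 2765 in control liver. Marco (3.91), Lyz2 (1.84) and C1qa (1.60) led it, and the defining marker Adgre1 was not above background on both arrays. T cell markers were higher in 7 of 8 (summed intensity 188 in CKO and 58 in control liver), led by Cd8b1, Cd8a and Cd3d, with Cd3e and Cd3g not above background on both. Natural killer markers were higher in 5 of 6 (167 in CKO and 56 in control liver), led by Gzma (0.69), Gzmb (0.63) and Klrd1 (0.28), with the defining markers Ncr1, Klrb1c and Nkg7 not above background on both.

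The other lists differed less or the other way. Dendritic cell markers were higher in 3 of 5 (131 in CKO and 83 in control liver), led by Itgax (0.57) and Batf3 (0.29), with Flt3, Xcr1 and Clec9a not above background on both. Neutrophil markers were higher in 5 of 7 (606 in CKO and 544 in control liver), led by S100a9 (0.67), S100a8 (0.45) and Csf3r (0.40). The defining marker Ly6g, the brightest of that list, was near equal at 0.0037 (345 in CKO and 356 in control liver). B cell markers were higher in 3 of 5 (102 in CKO and 95 in control liver), with Cd79b at 0.20 and Cd22 at -0.12. Stellate and mesenchymal markers were higher in 7 of 10 genes but summed to 2187 in CKO and 2561 in control liver, with Col3a1 at 0.57, Acta2 at 0.41 and Dcn at -0.52. Sinusoidal endothelial markers were lower in 7 of 9 (1028 in CKO and 1511 in control liver), with Oit3 at -0.64, Clec4g at -0.48 and Kdr at -0.43. Bile duct markers were lower in 6 of 6 (151 in CKO and 211 in control liver), with Krt19 at -0.33, Onecut1 at -0.24 and Krt7 at -0.20. Hepatocyte markers, with 6 of 11 higher and 4 lower, summed to 179290 in CKO and 193566 in control liver, led by Glul (0.58), Tat (-0.42) and Hnf4a (0.33). All 11 hepatocyte markers were above background on both arrays. The part of these cell types in the class I ratios was not tested.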

How the data were processed

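Total RNA of CKO and control liver, 1 array each, was turned into amino allyl aRNA and coupled to Cy5, per the labels' protocols. Scanner files hold, per the file headers, spot and local background median intensity in 1 colour, with 3 scanner gains related by least-squares lines. The deposited value table holds intensity in whole linear units; the labels do not say how the authors made it, so its scaling is unknown. Its median was 25 on each array. Arrays were corrected with normexp (limma 3.58.1, R 4.3.3) against the mean of 384 blank spots, with an offset of 50. The local background column was not used, because it followed the spot's own signal (r = 0.97 CKO, 0.99 control). After control spots were left out, arrays were quantile-normalized and log2 values of a gene's probes averaged. The 4 flagged control spots were left out.

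Probes were named from the platform annotation, whose gene identifiers for the members all matched RefSeq (GRCm38.p6). Thresholds were 1.5-fold and 2-fold. The members, gene lists and thresholds were chosen with earlier results of these data known. Named genes were all members and, per list, those past 1.5-fold and up to 4 others with the largest absolute ratios. For cell type lists they were up to 3 genes with the largest absolute ratios, plus defining markers near background. Canx, Calr, Pdia3, Hspa5, Nlrc5, Ifng, Jak2, H2-Q1, H2-Q10 and Ly6g were added after their values were seen. Alternatives were the local background column, plain subtraction, an offset of 16, median scaling, cyclic loess, the deposited values, the brightest probe and other filters. Motifs were searched with Python 3.11.15, and 1 further motif is not reported here. The procedure was tested on simulated data. The number of arrays limits the precision.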

Additional observations from a re-analysis of the deposited data

How the results depend on the processing

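With 1 array per genotype nothing could be left out, and signal over background is the main limit. No paired analysis was possible because there was 1 array per genotype and no test. Of the counts and class medians under 9 alternatives, 43 moved by less than the SD between probes of a gene (counts: by at most 1.5 times) and 11 moved more. Against the local background column the medians were 0.24 for all members, 2.26 for classical heavy chains, 0.32 for non-classical ones and 0.24 for transport and loading, 3 members were at least 1.5-fold higher, and H2-Q7 had the opposite sign (-0.064). With plain subtraction the classical median was 0.66 and the transport and loading median 0.87. The transport and loading median was 0.78 in the deposited values, 0.66 with the offset set to 16 and 0.73 with the brightest probe. With dim genes below the median level left out, H2-D1 dropped out and the classical median was 0.79. Tapbp had the opposite sign in the deposited values (-0.052), as the mean of a positive and a negative probe ratio. Settings chosen after seeing the data were plain subtraction with the brightest probe (0.82 for all members, 0.66 classical, 1.01 transport and loading), the deposited values with the brightest probe (0.90 transport and loading), and leaving out H2-D1 and the dim Tapbp probe (0.79 classical, 0.73 transport and loading).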
